A study of Mus musculus with 10 samples.

Results

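Carbonic anhydrases are zinc enzymes that interconvert carbon dioxide and bicarbonate. Their RNA levels were compared between NZO and C3H mice in islets, the endocrine part of the pancreas. Of 19938 genes with a probe set of their own on the array, 10 were taken, a named list of carbonic anhydrase genes (Car2, Car4, Car5b, Car8, Car9, Car10, Car11, Car12, Car13 and Car14), each through the brightest probe set that carried its symbol alone. None of the 10 had more than 1 such probe set. The other 6 genes of the family with a Car symbol are described as relatives. NZO islets came from male NZO/Hl mice, an obese and diabetes-prone strain, and C3H islets from male C3HeB/FeJ mice. Each strain gave 5 arrays, all from animals aged 6 weeks that had eaten a high-fat chow (45% of calories) since weaning on day 21, and the islets spent a night in culture with 10 mM glucose. The labels name no genetic change besides the strain. Sample titles list animal numbers, usually a pair, but 1 for NZO replicate 4 and a range for NZO replicate 5. No animal number is shared between arrays. Whether animals were pooled is not stated, and the p-values therefore describe variation among these 10 arrays, part of which may be technical.

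In the exocrine pancreas, carbonic anhydrase in duct cells supplies the bicarbonate of pancreatic juice. In islets, the enzymes bear on the pH of the cell and on the bicarbonate that mitochondrial carboxylases use. The family is sorted by where the protein sits: Car2 and Car13 in the cytosol, Car5b in mitochondria, and Car4, Car9, Car12 and Car14 at the cell surface. Car8, Car10 and Car11 lack the zinc-binding residues of an active enzyme and are called acatalytic. Car9 is a textbook target of the hypoxia-inducible factors (HIF), transcription factors that act when oxygen is low and bind a short DNA core. The core is ACGTG in one form, and the other form has the letters GCGTG.

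Promoter sequences are shown for Car9 and Car5b, the 2 members that were higher in NZO islets and had an entry in the RefSeq promoter table. Car14 is shown too, a surface enzyme that holds the same core close to its listed start and did not pass the test. Each is the 250 bases before the start listed for that promoter in GRCm38.p6, written 5′ to 3′ on the strand of the gene. Capitals mark either form of the core on either strand. The Car9 stretch is chr4:43506776-43507025 on the plus strand, that of Car5b is chrX:164028011-164028260 on the minus strand and that of Car14 is chr3:95904686-95904935 on the minus strand. The Car9 and Car5b windows adjoin the annotated span of the gene. The Car14 window lies inside that span (95897768 to 95905117), as do those of Car10, Car11 and Car12, so the listed start is not the outermost one.
Car9: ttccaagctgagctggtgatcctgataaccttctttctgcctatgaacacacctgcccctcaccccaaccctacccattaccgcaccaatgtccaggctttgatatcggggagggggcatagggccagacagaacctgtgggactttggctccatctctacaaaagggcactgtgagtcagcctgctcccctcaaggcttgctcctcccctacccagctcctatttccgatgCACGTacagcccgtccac
Car5b: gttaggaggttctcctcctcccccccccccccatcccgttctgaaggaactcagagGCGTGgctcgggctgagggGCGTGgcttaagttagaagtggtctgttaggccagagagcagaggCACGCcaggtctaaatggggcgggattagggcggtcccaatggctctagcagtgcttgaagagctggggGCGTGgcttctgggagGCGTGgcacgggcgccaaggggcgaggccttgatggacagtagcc
Car14: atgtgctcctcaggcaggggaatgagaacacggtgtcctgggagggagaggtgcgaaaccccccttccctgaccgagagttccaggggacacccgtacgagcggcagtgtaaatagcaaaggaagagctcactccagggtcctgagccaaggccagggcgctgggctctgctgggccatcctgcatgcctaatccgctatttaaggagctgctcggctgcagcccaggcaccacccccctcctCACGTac
Car9 held 1 such core, on the strand opposite to the gene, with its first base at position -18 from the start. Car14 also held 1 on the opposite strand, at position -7, and Car5b held 5, all GCGTG, of which 1 was on the opposite strand. Of 32851 promoter windows of this length, 16.6% held ACGTG and 28.2% held GCGTG on either strand. Either form was found in 38.6% of windows. Among the members called lower, the Car10 table entries held ACGTG in 1 window, at -145 on the strand of the gene, and those of Car11 held GCGTG in 1 window, at -218 on the opposite strand. The Car4 and Car12 windows held neither. ACGTG can be part of the E-box CACGTG, found in 6.02% of windows. Such matches are words in a window and no measure of binding. The table matched 7 of the 10 members, and Car2, Car8 and Car13 are named only.

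Expression is given as the deposited log2 value of RMA, a method that corrects background, equalises the arrays and summarises the probes of a set. A difference is NZO minus C3H on that scale, with its standard error (SE) or 95% interval from limma, fitted on all genes, and a gene was called where its Benjamini-Hochberg adjusted p was below 0.05. RMA gives no detection call, so the 1027 olfactory receptor genes, most of which are silent outside the nose, served as a yardstick of background. The 95th percentile of their means was 6.36 in NZO and 6.42 in C3H, and a fold is given only where both strain means lay above it. Medians of the arrays spanned 6.93 to 7.05. C3H replicate 4 stood apart, with a 95th percentile of olfactory receptor genes of 6.85 on that array, where the other 9 arrays had 6.28 to 6.47. Among all genes, 10.1% were called, 5.47% higher and 4.61% lower in NZO islets, and the median difference was -0.02.

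Of the 10 carbonic anhydrases, 6 were called, or 60%. Car9, Car2 and Car5b were higher in NZO islets, Car13, Car10 and Car11 were lower, and Car4, Car8, Car12 and Car14 did not pass. The median over the 10 was -0.04, and the median absolute difference was 0.37 against 0.10 over all genes. In 4 of the 10, all NZO arrays lay on one side of all C3H arrays. Such separation held for 9.14% of all genes, 4.96% with NZO above C3H and 4.18% with NZO below. The 10 are a chosen list: with its 6 relatives counted, 7 of 16 Car genes were called.

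**Figure D1:**
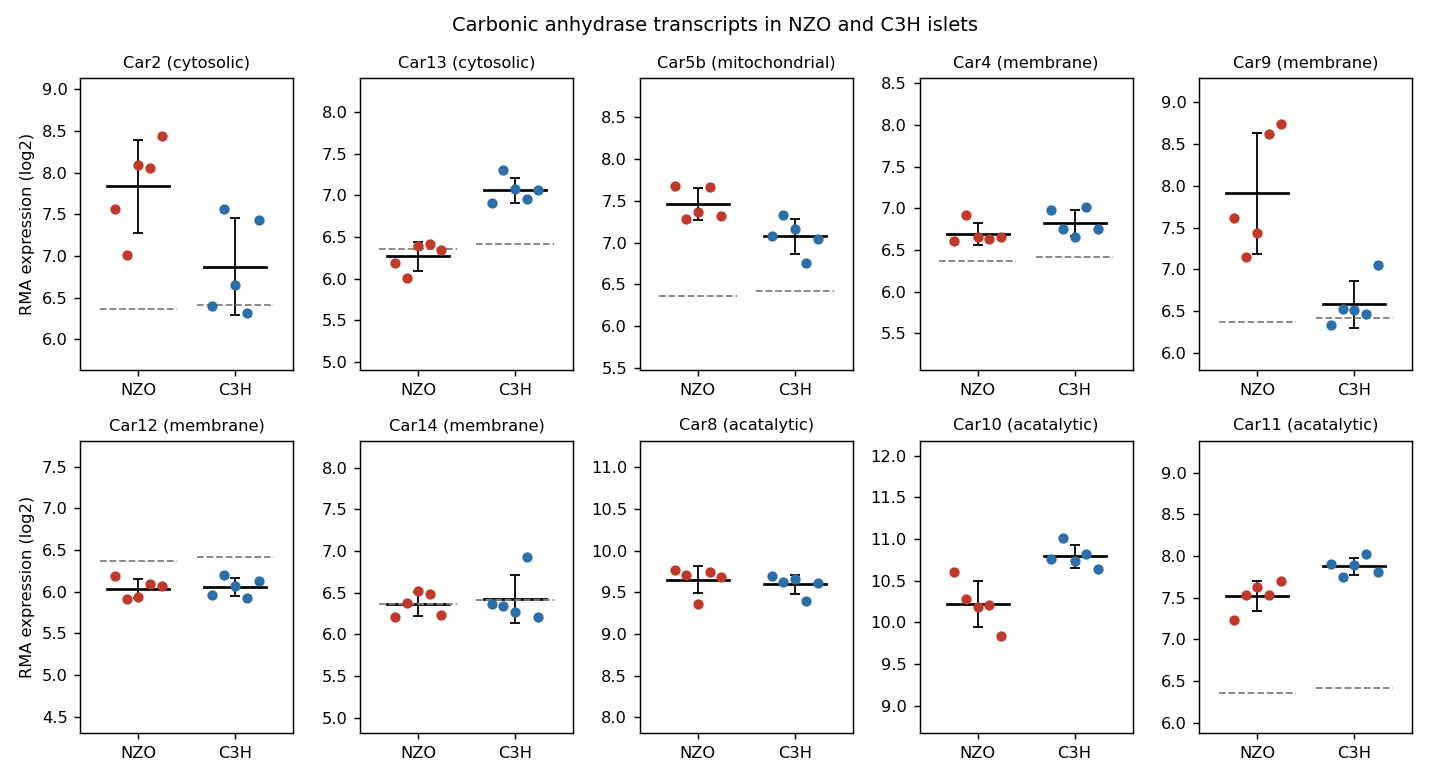
Deposited RMA values (log2) of the 10 carbonic anhydrases on the 5 NZO arrays (red, left) and the 5 C3H arrays (blue, right), with the same span of log2 units in each panel. Horizontal bars are means with SD, and dashed lines are the 95th percentile of olfactory receptor genes in that strain. Car9, Car13, Car10 and Car11 separate the strains without overlap, and Car12 lies under the dashed lines in both.

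Car9, the transmembrane enzyme whose catalytic part faces outward, showed the largest difference of the 10. Its values were 7.61, 7.14, 7.43, 8.62 and 8.74 on NZO replicates 1 to 5, against 6.34, 6.52, 6.51, 6.46 and 7.05 on C3H replicates 1 to 5. All 5 NZO arrays lay above all C3H arrays, and NZO replicates 4 and 5 stood about 1 log2 unit or more above the other NZO arrays. The means were 7.91 ± 0.73 in NZO and 6.58 ± 0.28 in C3H (SD, n = 5 each), so NZO exceeded C3H 2.52-fold (1.33 on the log2 scale, SE 0.27, adjusted p = 0.00493 in limma). The exact two-sided permutation test over the 10 arrays gave p = 0.00794, the smallest that 5 against 5 arrays allow. The C3H mean was close to the background yardstick. Without NZO replicates 4 and 5 the difference was 0.82 (SE 0.15, limma adjusted p = 0.00531).

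All 9 measured acinar markers, genes of the enzyme-secreting cells, were also called higher in NZO islets, where 5.47% of all genes were called higher, and their mean was 12.36 and 12.20 on NZO replicates 4 and 5 and 10.54 to 11.18 on the other NZO arrays, against 8.84 to 9.82 in C3H. Of 7 duct markers, 3 were called higher, among them Krt19 (1.55, SE 0.24), while Krt7 differed by 0.02 (SE 0.08) and Cftr was under the yardstick in both strains. The duct mean was 8.98 and 8.91 on NZO replicates 4 and 5 and 8.00 to 8.36 on the other NZO arrays, against 7.62 to 7.71 in C3H. Of 8 stellate cell markers 2, and of 8 macrophage markers 3, were called higher, and the rest of these lists did not pass. The stellate mean was 7.99 to 9.34 in NZO and 8.00 to 8.30 in C3H, and the macrophage mean 7.60 to 8.71 in NZO and 7.50 to 7.65 in C3H. With the acinar mean as a covariate the Car9 difference was 0.05 (SE 0.41), and with the duct mean 0.00036 (SE 0.22). These scores differ between the strains, which alone multiplies the SE by 2.1 for the acinar and 1.79 for the duct mean. The part of such cells in the Car9 result was not tested. In bulk islet RNA, a change in the number of cells of a type and a change in RNA per cell cannot be told apart.

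**Figure D2:**
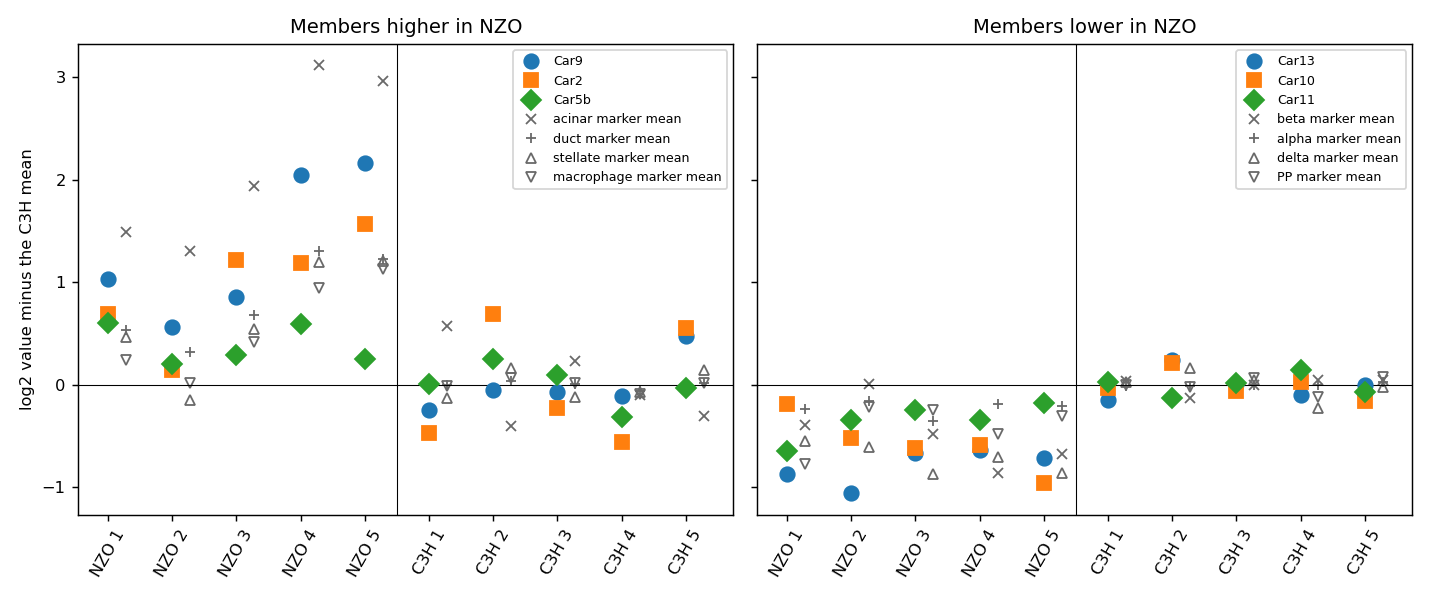
Values of the 6 called members (coloured) and means of marker lists (grey, drawn slightly to the right) on each array, in log2 units minus the C3H mean. On the left, Car9 and the acinar, duct, stellate and macrophage means are highest on NZO 4 and NZO 5, while Car5b is not; on the right, Car13 is below all C3H arrays on each NZO array.

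Genes whose centred values over the 10 arrays lay closest to those of Car9 were C1s1, a complement protease gene, 2210407C18Rik and Pla2g7, which encodes a lipoprotein-associated phospholipase. Their root mean square distances from Car9 were 0.18, 0.19 and 0.19 log2 units, where Car9 itself spread by 0.83 around its mean. Pla2g7 averaged 9.61 ± 0.71 in NZO and 8.22 ± 0.18 in C3H (SD, n = 5 each). The means of 2210407C18Rik were under the background yardstick in both strains (6.02 in NZO and 4.75 in C3H), and that of C1s1 was under it in C3H (5.73).

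Hypoxia genes gave a setting for Car9. Of 28 measured genes of the HIF pathway and its classic targets, 2 were called higher and 1 lower, with a median of 0.04, against 5.47% higher and 4.61% lower among all genes. Egln3, a prolyl hydroxylase that marks HIF for breakdown, was 2.19-fold higher in NZO islets (1.13, SE 0.22). Stc2, a stanniocalcin, was 1.45-fold higher (0.54, SE 0.11). Neither was called with the acinar or the duct mean as a covariate, at 0.50 and 0.27 for Egln3 and 0.57 and 0.43 for Stc2. On NZO replicates 1 to 5, Egln3 had 8.74, 7.74, 8.42, 9.06 and 8.93. On C3H replicates 1 to 5 it had 7.35, 7.77, 7.03, 7.21 and 7.87, so NZO replicate 2 overlapped the C3H arrays. Pdk1, a kinase that holds pyruvate back from the citric acid cycle, was lower, at 8.14 ± 0.24 in NZO and 9.13 ± 0.18 in C3H (SD, n = 5 each; -0.998, SE 0.12), and was not called with the acinar mean as a covariate (-1.01, limma adjusted p = 0.0897). Vegfa (-0.11, SE 0.07), the glucose transporter Slc2a1 (0.16, SE 0.13) and the mitophagy gene Bnip3 (-0.10, SE 0.13), chosen after their values were seen as familiar targets, did not pass. Other genes that did not pass had larger differences: Pfkfb3 (0.50, SE 0.18), Ldha (0.39, SE 0.20), Hk2 (0.36, SE 0.14) and Ddit4 (0.34, SE 0.11). The most negative of those that did not pass was Ankrd37 (-0.12, SE 0.13).

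Car2, the fast cytosolic enzyme that marks pancreatic duct cells, was also higher in NZO islets, but with wide scatter. Its values were 7.57, 7.02, 8.09, 8.06 and 8.44 on NZO replicates 1 to 5, against 6.40, 7.57, 6.65, 6.32 and 7.43 on C3H replicates 1 to 5. Only 3 NZO arrays lay above every C3H array, and the SDs were 0.55 in NZO and 0.59 in C3H. The difference was 0.96 (SE 0.28, 1.95-fold, limma adjusted p = 0.0412). It was 0.02 (SE 0.39) with the duct mean as a covariate and 0.45 (SE 0.56) with the acinar mean. C3H replicates 2 and 5, the high C3H arrays for Car2, had stellate means of 8.30 and 8.28, against 8.00 to 8.07 on the other C3H arrays. Their endothelial means were 9.45 and 9.66, against 9.31 to 9.32, and their duct means 7.71 and 7.70, against 7.62 to 7.68. Their acinar means went the other way, at 8.84 and 8.94, against 9.14 to 9.82. Macrophage means were 7.65 and 7.60 on these arrays, against 7.50 to 7.60. The part of any of these cells was not tested. The call ended without NZO replicate 3 (0.90), 4 (0.91) or 5 (0.81) and without C3H replicate 1 (0.84), 3 (0.90) or 4 (0.82), with limma adjusted p of 0.084 to 0.112, and without NZO replicates 4 and 5 together (0.68, SE 0.29, limma adjusted p = 0.286). Nearest to Car2 over the 10 arrays were Adam12, a metalloprotease gene, the cytokine receptor gene Il7r and the drug exporter gene Abcb1b, at distances of 0.28, 0.28 and 0.29 log2 units, where Car2 itself spread by 0.70. The C3H mean of Il7r (6.15) was under the yardstick.

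Car13, the other cytosolic enzyme, was lower in NZO islets. Its values were 6.19, 6.01, 6.40, 6.42 and 6.35 on NZO replicates 1 to 5, against 6.91, 7.30, 7.07, 6.96 and 7.06 on C3H replicates 1 to 5. Every NZO array lay below every C3H array, with a gap between the highest NZO and the lowest C3H value. The difference was -0.79 (SE 0.10, limma adjusted p = 0.000125; exact permutation p = 0.00794, n = 5 each). The NZO mean of 6.27 ± 0.17 was under the background yardstick and the C3H mean of 7.06 ± 0.15 above it, so no fold is given. Car13 passed under all 19 alternatives in which it was tested, with differences between -1.06 and -0.72, including -0.86 without NZO replicates 4 and 5, -0.97 (SE 0.21, limma adjusted p = 0.04) with the acinar mean and -1.06 (SE 0.16, limma adjusted p = 0.00155) with the duct mean as a covariate. The genes nearest to it were Nab2, a corepressor of early growth response factors, Amotl1, which encodes an angiomotin-like protein, and the glyoxalase gene Glo1, at distances of 0.11, 0.11 and 0.12 log2 units.

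Car13 and Car2 are neighbours in the genome. In GRCm38.p6 the cytosolic genes Car13 (chromosome 3, 14641727 to 14663002), Car1 (14766214 to 14808365), Car3 (14863538 to 14872381) and Car2 (14886269 to 14900770) lie within 259 kb, with no other protein-coding gene starting between Car13 and Car2. From one end to the other, the differences were -0.79 for Car13, -0.30 (SE 0.12) for Car1, the abundant red cell enzyme, -0.15 (SE 0.09) for Car3, an enzyme of muscle and fat, and 0.96 for Car2. Car1 (limma adjusted p = 0.137) and Car3 (limma adjusted p = 0.431) did not pass. Car3 was under the yardstick in both strains (6.11 in NZO and 6.26 in C3H). Car1 averaged 6.38 in NZO, close to the yardstick, and 6.68 in C3H, where replicate 4 was highest at 7.15. Of 4 measured red cell markers, none was called, and their mean was 6.40 to 6.72 in NZO and 6.41 to 6.86 in C3H.

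Car5b, the mitochondrial enzyme, was modestly higher in NZO islets. It had 7.68, 7.28, 7.36, 7.66 and 7.32 on NZO replicates 1 to 5, against 7.08, 7.33, 7.17, 6.76 and 7.04 on C3H replicates 1 to 5. C3H replicate 2 overlapped the lower NZO arrays. The difference was 0.39 (SE 0.11, 1.31-fold, limma adjusted p = 0.0433). The difference was 0.37 (SE 0.13, limma adjusted p = 0.158) without NZO replicates 4 and 5, 0.34 with the acinar mean and 0.27 with the duct mean as a covariate, and its values on NZO replicates 4 and 5 (7.66 and 7.32) were within the range of the other NZO arrays. Its call held without NZO replicate 2 or C3H replicate 2 and ended without any other single array, with differences of 0.31 to 0.42 and limma adjusted p of 0.0531 to 0.113.

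A list of 8 measured genes whose enzymes consume bicarbonate held carboxylase genes and Cps1, which encodes a synthetase. Of the 8, 3 were called lower, none higher and 5 did not pass, with a median of -0.26, where 4.61% of all genes were called lower. Among those that did not pass, Mccc2 differed by -0.37 (SE 0.11, limma adjusted p = 0.0525), about as much as the called Pcca, and Mccc1 by -0.16 (SE 0.11). Acacb differed by 0.0098, Acaca by -0.09 and Cps1, under the yardstick in both strains, by -0.0098. Pccb and Pcca encode the subunits of mitochondrial propionyl-CoA carboxylase. Pccb averaged 8.81 ± 0.14 in NZO and 9.47 ± 0.13 in C3H (SD, n = 5 each; -0.66, SE 0.09), and Pcca 8.73 ± 0.15 in NZO and 9.10 ± 0.13 in C3H (-0.37, SE 0.09). Pcx, pyruvate carboxylase, differed by -0.59 (SE 0.13). The call of Pcca ended without NZO replicate 5, C3H replicate 1 or C3H replicate 3 (each -0.34), those of Pcca (-0.29) and Pcx (-0.45) without NZO replicates 4 and 5, and all 3 with either covariate.

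The remaining surface enzymes did not pass. Car4, which is tethered to the outer membrane by a lipid anchor, averaged 6.69 ± 0.13 in NZO and 6.83 ± 0.16 in C3H (SD, n = 5 each), with a 95% interval of the difference from -0.33 to 0.06. On 4 NZO arrays it lay below every C3H array, at 6.60 to 6.65, and NZO replicate 2 was at 6.92. The margin was very small, with NZO replicate 3 at 6.655 and C3H replicate 3 at 6.656. Car14 averaged 6.37 ± 0.14 in NZO and 6.42 ± 0.29 in C3H, at the yardstick in both strains, with an interval from -0.32 to 0.21. Car12 averaged 6.04 ± 0.11 in NZO and 6.05 ± 0.11 in C3H, under the yardstick, and its interval of -0.19 to 0.16 bounds only what this probe set could register. Of these surface enzymes only Car9 was called; whether its difference exceeds theirs was not tested.

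Among the acatalytic proteins, Car10 and Car11 were lower in NZO islets and Car8 did not pass. Car10, a secreted protein that binds neurexins, the presynaptic adhesion proteins, in the mouse brain, had 10.61, 10.28, 10.18, 10.21 and 9.84 on NZO replicates 1 to 5, against 10.77, 11.01, 10.74, 10.82 and 10.64 on C3H replicates 1 to 5. The strains were separated by a narrow margin, NZO replicate 1 lying just under the lowest C3H array. The difference was -0.57 (SE 0.12, limma adjusted p = 0.00667), so the level in C3H was 1.49-fold that in NZO. It was -0.44 (SE 0.12, limma adjusted p = 0.0449) without NZO replicates 4 and 5, and -0.13 (SE 0.22) and -0.25 (SE 0.19) with the acinar and the duct mean as a covariate.

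Car11, the closest relative of Car10, had 7.23, 7.53, 7.62, 7.53 and 7.70 on NZO replicates 1 to 5, against 7.90, 7.75, 7.89, 8.02 and 7.81 on C3H replicates 1 to 5. All NZO arrays again lay below all C3H arrays, here with NZO replicate 5 close to C3H replicate 2. The difference was -0.35 (SE 0.09, 1.28-fold higher in C3H, limma adjusted p = 0.0245). Without NZO replicate 4, C3H replicate 1 or C3H replicate 3 it stayed at -0.35, with limma adjusted p of 0.0509 to 0.0635. With the covariates it was -0.60 (SE 0.19, acinar) and -0.49 (SE 0.16, duct), with limma adjusted p of 0.263 and 0.199.

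Some endocrine markers were lower in NZO islets, as were Car10, Car11 and Car13. Called lower were 3 of 10 beta, 2 of 5 alpha, 4 of 5 delta and 1 of 2 PP cell markers, where 4.61% of all genes were called lower, and the others did not pass. Ptprz1, a relative described below, is among the called delta markers and in the delta mean. The delta mean was 8.70 to 9.03 in NZO and 9.35 to 9.73 in C3H, the alpha mean 9.90 to 10.09 in NZO and 10.24 to 10.27 in C3H, and the PP mean 12.87 to 13.42 in NZO and 13.52 to 13.71 in C3H. The beta mean was 10.68 to 11.55 in NZO and 11.41 to 11.58 in C3H, lowest on NZO replicates 4 and 5. Within NZO, Car11 was highest on replicate 5 (7.70) and Car13 on replicate 4 (6.42), and Car10 was lowest on replicate 5 (9.84). Of the leading markers, Slc2a2 (beta, -1.54, SE 0.29), Sst (delta, -0.75, SE 0.11) and Ppy (PP, -0.41, SE 0.08) were called lower. Hhex (delta, -0.23, SE 0.12) and Pyy (PP, -0.39, SE 0.14) did not pass. Neither did Ins2 (0.12, SE 0.08) and Gcg (-0.04, SE 0.08), the insulin and glucagon genes. Ins2 and Gcg had strain means of 12.33 to 13.25, and RMA compresses differences of very bright genes. The part of cell composition in these results was not tested.

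Car8, which binds the inositol trisphosphate receptor Itpr1 in mouse cerebellar neurons, averaged 9.65 ± 0.16 in NZO and 9.60 ± 0.12 in C3H (SD, n = 5 each). The 95% interval of its difference was -0.14 to 0.25. Of the 4 measured genes for receptors that acatalytic members bind or their close relatives (Itpr2, Itpr3, Nrxn2, Nrxn3), Itpr2 was called. It was 1.33-fold higher in NZO islets (0.41, SE 0.09), where 5.47% of all genes were called higher. Its call ended without NZO replicates 4 and 5 (0.32, limma adjusted p = 0.0714) and with the acinar (0.12) or the duct mean (0.15) as a covariate.

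**Figure D3:**
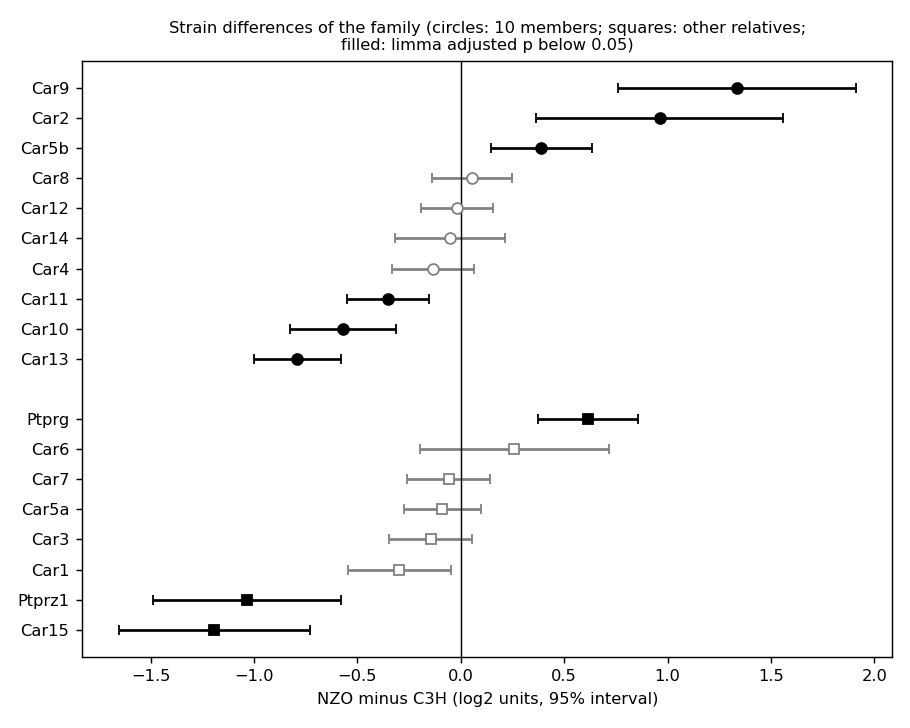
NZO minus C3H differences (log2 units) with 95% intervals for the 10 members (circles) and their relatives (squares), filled where the limma adjusted p was below 0.05. Car9 at 1.33 and Car15 at -1.19 mark the ends, and the intervals of Car8, Car12, Car14 and Car4 include 0.

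Car11 lies on chromosome 7 at 45699171 to 45704687 in GRCm38.p6, inside the interval of 30 to 46 Mb that the study searched for gene variants. In that interval 32 of 255 tested genes were called (12.5%), 19 of them lower (7.45%). Among all genes, 10.1% were called, 4.61% of all being lower. Its nearest tested neighbours on one side were Ntn5, Sec1, Fut2 and Mamstr and on the other Dbp, Sphk2, Fam83e and Spaca4. Dbp, a clock-driven transcription factor gene that starts within 1 kb of the end of Car11, averaged 8.04 ± 0.33 in NZO and 8.67 ± 0.32 in C3H (SD, n = 5 each; -0.63, SE 0.17). The call of Dbp ended without NZO replicate 3, 4 or 5 or C3H replicate 1, 2 or 3 (-0.64 to -0.50, limma adjusted p of 0.0524 to 0.0738) and without NZO replicates 4 and 5 together (-0.48), and it was -0.39 and -0.24, not called, with the acinar and the duct mean as a covariate. Fut2, a fucosyltransferase gene of mucosal epithelia, was the other called neighbour and was higher, at 7.05 ± 0.43 in NZO and 6.29 ± 0.24 in C3H (0.77, SE 0.18), with 0.46 (limma adjusted p = 0.0618) without NZO replicates 4 and 5, and 0.04 and 0.01 with the acinar and the duct mean as a covariate. The other 6 neighbours differed by -0.02 to 0.22 and did not pass.

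Of the 8 relatives, 3 were called, 1 higher and 2 lower, where 10.1% of all genes were called. Car15, a lipid-anchored enzyme that is active in mice, had 9.93, 9.82, 9.41, 8.87 and 8.80 on NZO replicates 1 to 5, against 10.78, 10.67, 10.90, 10.20 and 10.24 on C3H replicates 1 to 5. The strains did not overlap, and the level in C3H was 2.28-fold that in NZO (-1.19, SE 0.22, limma adjusted p = 0.00224). With the acinar and the duct mean as a covariate the Car15 difference was -0.30 and -0.28, and it was not called. Ptprg and Ptprz1 encode receptor phosphatases with a carbonic anhydrase-like outer domain. Ptprg was 1.53-fold higher in NZO islets (0.61, SE 0.11), and Ptprz1, which is also a delta cell marker here, differed by -1.03 (SE 0.21). Neither was called with the acinar or the duct mean as a covariate, at 0.34 and 0.29 for Ptprg and -0.75 and -0.94 for Ptprz1. Car5a, the liver mitochondrial enzyme (-0.09), the salivary enzyme Car6 (0.26) and the neuronal enzyme Car7 (-0.06) did not pass.

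A list for the transport of bicarbonate, protons or water beside these enzymes had 30 measured genes. Among them Adcy10, an adenylyl cyclase gene, encodes no transporter. Of the 30, 3 were called higher and 1 lower, with a median of 0.02, a share near the 10.1% of all genes that were called. Aqp1, a water and gas channel of ducts and vessels, was 1.65-fold higher in NZO islets (0.72, SE 0.16), Slc26a9, an epithelial anion transporter, differed by 0.91 (SE 0.22) and Slc4a11, of the bicarbonate transporter family, by 0.59 (SE 0.16). Slc16a7, a monocarboxylate carrier that can bind carbonic anhydrase, was lower (-0.93, SE 0.15), at 6.18 ± 0.32 in NZO and 7.11 ± 0.26 in C3H (SD, n = 5 each). With the covariates, Aqp1 and Slc26a9 turned to negative values that were not called (-0.17 and -0.086 for Aqp1, -0.37 and -0.20 for Slc26a9 with the acinar and the duct mean), as did Slc4a11 with the duct mean. Slc4a11 also lost its call without each of NZO replicates 1, 3, 4 and 5 and C3H replicates 1, 3 and 5 (0.49 to 0.59), and without NZO replicates 4 and 5 together (0.40), and Slc26a9 without NZO replicate 5 (0.80).

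**Figure D4:**
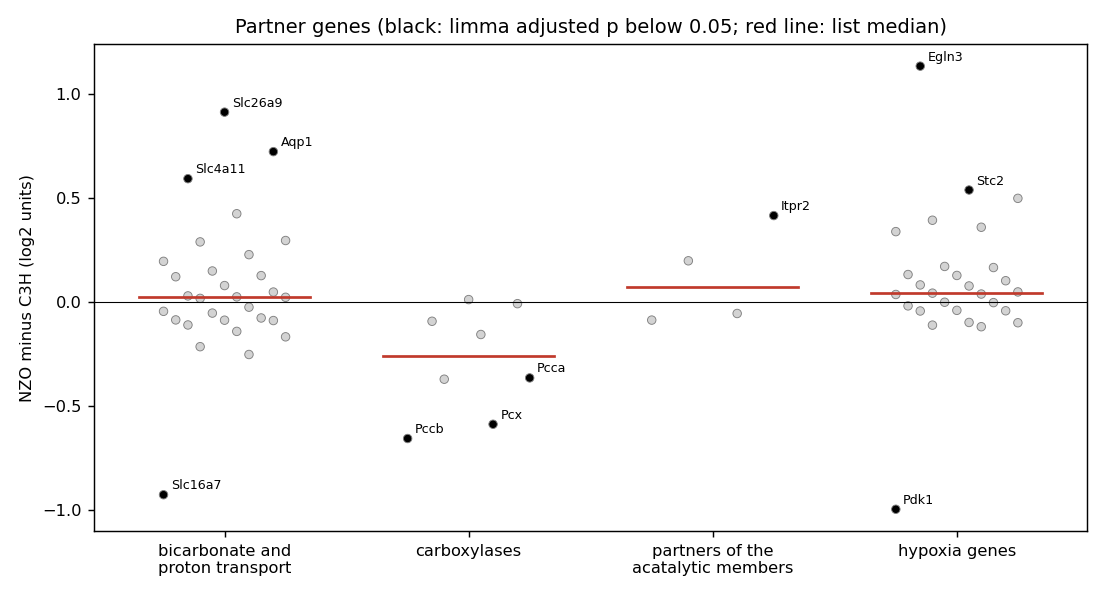
NZO minus C3H differences (log2 units) of genes that work beside the carbonic anhydrases, one point per gene, black and named where the limma adjusted p was below 0.05, with the list median as a red line. In the list of carboxylases, which includes the synthetase gene Cps1, 3 of 8 were called lower, and the other 3 lists have medians of 0.02 to 0.07.

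Each of the 6 called members was also fitted with a marker mean as a covariate, a score that itself differs between the strains and is no measure of exocrine content. Of the 6, Car13 alone was called with either one. Whether the members differ in how far the covariates moved them was not tested.

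**Figure D5:**
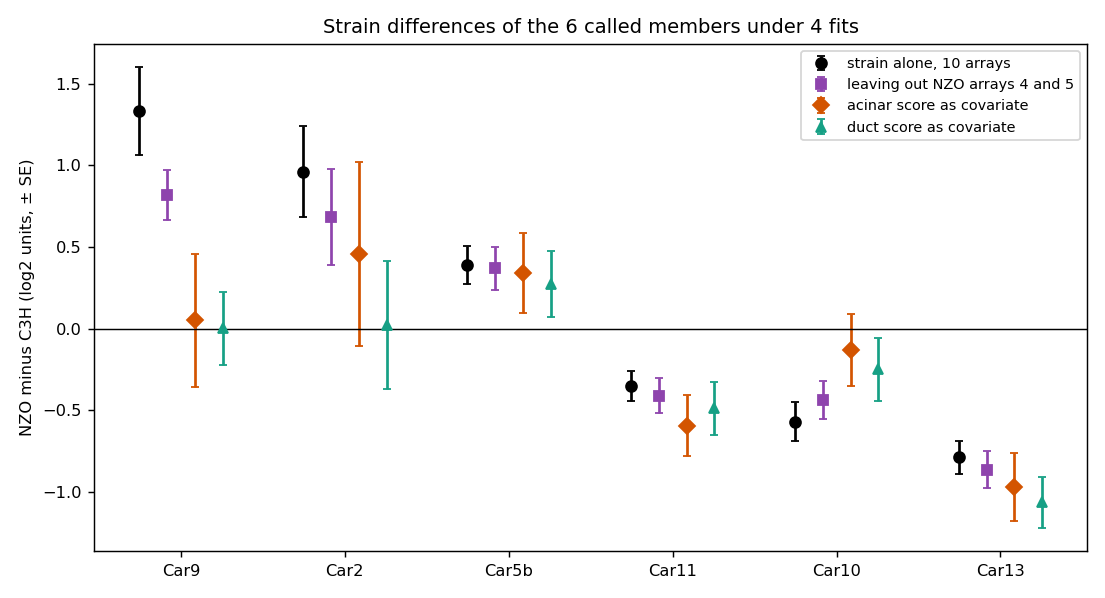
NZO minus C3H differences (log2 units, ± SE) of the 6 called members from strain alone, without NZO arrays 4 and 5, and with the acinar or the duct marker mean as a covariate. Car9 and Car2 reach 0 with the duct mean, whereas Car13 stays between -1.06 and -0.79 in all 4.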

How the data were processed

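Islet RNA of 5 NZO and 5 C3H samples (150 ng, RNA integrity number above 8) was hybridised to Affymetrix whole-transcript mouse arrays, per the labels' protocols. The authors deposited log2 values from RMA; the submitters' processing notes name Affymetrix Expression Console. Not given in the sources used here: its version, the probe set library and any masking of probes for strain variants. RMA quantile-normalizes the arrays and compresses dim and very bright differences. No further normalization was applied, and 1 array per sample limits the precision.

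Of 35556 probe sets, 21789 carried 1 gene symbol in the platform annotation, 1621 several and 12146 none. The brightest per gene gave 19938 genes, of which 19856 matched a GRCm38.p6 gene table by Entrez ID. All genes were fitted together in limma 3.58.1 (lmFit, eBayes; two-sided) under R 4.3.3, after a run on simulated data. Replicates are numbered in order of deposition and pair nothing, and the labels give no batch. Members and gene lists were chosen with earlier results of these data known. The text names all members and relatives, up to 4 called genes per partner list with the smallest p, the 4 tested genes on each side of Car11, the 3 genes nearest in pattern to each of the 3 members with the largest differences, and leading markers. Some partner genes that did not pass are also named. Alternatives were brightness filters, averaged probe sets, centring, another variance model, array weights, an exact permutation test, marker means as covariates and left-out arrays.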

Additional observations from a re-analysis of the deposited data

Results flagged for a closer look

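Each strain's 5 values of the 10 members were screened for a value far from the rest, defined as a gap to its neighbour above 0.71 of the strain's whole range. Chance gives about 1 such value in 20 groups, and 20 groups were screened. In NZO, Car4 on replicate 2 stood high at 6.92, where the next value was 6.65, and Car8 on replicate 3 stood low at 9.37, where the next was 9.68. In C3H, Car9 on replicate 5 stood high at 7.05, where the next value was 6.52. Car14 on C3H replicate 4 stood high at 6.93, where the next value was 6.36, and Car8 on the same array stood low at 9.40, where the next was 9.61. C3H replicate 4 had the highest median of all arrays, 7.05.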

How the results depend on the processing

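Of the 10 members, Car13 kept its call in every alternative in which it was tested, Car9 and Car10 in all such but the acinar and duct covariates, and none turned to the opposite sign with a call in either fit. Members without a call changed sign in 9 fits, with values up to 0.11 in size. The number called higher in NZO was 3, with 1 to 3 over the left-out single arrays, 1 without NZO replicates 4 and 5, and 0 with the acinar mean, with the duct mean and above median brightness, where only 3 members remained to be tested. In limma those 3 fits also gave 0 at an unadjusted p under 0.05. The number called lower was 3, with 2 to 3 over the left-out single arrays and 1 with either covariate. The exact permutation test at an unadjusted 0.05 gave the same 3 and 3. Car2 also lost its call in limma with trend and robust variance (adjusted p = 0.128). The members' median was -0.35 above median brightness, over 3 genes. Partner genes called higher numbered 7, with 5 to 12 over the left-out arrays (12 without NZO replicate 2), and 0 with either covariate (2 with each at an unadjusted p under 0.05 in limma). Those called lower also numbered 7, with 6 to 9 over the left-out arrays, 11 with array weights, 1 with the acinar and 2 with the duct mean.

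With the acinar mean as a covariate, called differences turned to -0.17 for Aqp1, -0.37 for Slc26a9, -0.60 for Cpa1, -0.17 for Csf1r, -0.00059 for 2210407C18Rik and -0.20 for Il7r. With the duct mean they were -0.086 for Aqp1, -0.20 for Slc26a9, -0.055 for Slc4a11, -0.10 for Csf1r, -0.0066 for Pdgfra, -0.060 for C1s1 and -0.26 for Il7r, and Adgre1, uncalled by strain alone, was -0.57. Cpa1 is part of the acinar mean. The cause of the other changes was not tested. No paired analysis was possible because the labels pair no arrays and replicates were only numbered as deposited. Among all genes, 195 were called with the acinar and 411 with the duct mean, against 2010 by strain alone, and 4125 with array weights.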
